A study of Mus musculus with 2 samples.

Results

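The genes of G1/S entry and DNA replication were followed in regulatory T (Treg) cells of mouse muscle after injury. They are 57 of the 23337 gene symbols in the count table, each taken by an exact match of its symbol. Both libraries came from 8-week-old male mice of the Foxp3-IRES-GFP reporter strain on C57BL/6, in which green fluorescence reports Foxp3, the transcription factor that defines Treg cells. Leg muscles of both groups were injured with cardiotoxin, a venom toxin that destroys muscle fibres, and the muscle was given recombinant IL-33 (0.3 ug) in one group and PBS in the other. The muscles were the tibialis anterior, quadriceps and gastrocnemius. At 4 days after injury, 5000 Treg cells per library were taken through repeated sorting. Each group is 1 library, and how many mice were pooled is not given in the sources used here. There is therefore no replicate error: "higher" and "lower" compare 2 libraries, every interval covers counting error only, and amplified reads without molecular identifiers are not independent molecules.

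A resting T cell that is stimulated makes D-type cyclins, which with the kinases Cdk4 and Cdk6 phosphorylate the Rb family and release E2F factors. E2F factors then drive cyclin E, the licensing factors that load the MCM helicase ring onto origins, the enzymes of deoxynucleotide supply and the replication fork itself. Origins are licensed in G1 and fire in S phase, when Cdt1 protein is destroyed and geminin (Gmnn) blocks relicensing. Treg cells in injured muscle are known to expand locally.

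E2F-type sites were searched for at the starts of the members. The members belong to a pathway that E2F factors drive, so a raised share of such sites is not independent of their choice. RefSeq start windows (GRCm38.p6, 250 bases before to 50 after each start) were matched for 46 members. The 8-letter motifs TTTCCCGC and TTTGGCGC were searched on both strands, and they do not overlap in any member window. At least 1 of them lay in a window of 13 matched members (28.3%), against 373 of 15725 matched genes of the table (2.37%). Those genes were taken at any level, also unexpressed. The share was 6 of 10 among licensing genes and 0 of 5 among nucleotide supply genes. The stretches below lie in no annotated exon and are shown for the widely differing members Cdc25a and Cdc6 and for 3 members that stayed within 2-fold. Capitals mark the motif or its reverse complement, and each stretch is read 5′ to 3′ on the strand of its gene.

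Cdc25a, chr9:109875486-109875545, plus strand: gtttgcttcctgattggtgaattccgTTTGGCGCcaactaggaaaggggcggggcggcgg

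Cdc6, chr11:98907987-98908046, plus strand: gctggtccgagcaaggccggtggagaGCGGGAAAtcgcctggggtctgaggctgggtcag

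Mcm5, chr8:75109334-75109393, plus strand: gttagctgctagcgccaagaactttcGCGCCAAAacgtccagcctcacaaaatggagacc

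Mcm6, chr1:128359719-128359778, minus strand: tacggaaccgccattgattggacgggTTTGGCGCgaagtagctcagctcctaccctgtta

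Mcm6, chr1:128359782-128359841, minus strand: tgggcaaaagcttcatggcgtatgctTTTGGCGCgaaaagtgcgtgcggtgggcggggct

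Pola1, chrX:93632260-93632319, minus strand: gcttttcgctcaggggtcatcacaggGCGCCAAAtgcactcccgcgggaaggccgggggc

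Members holding a motif differed in both directions between the libraries. The 12 motif-holding members over the level floor described next had log2 folds from -1.07 to 5.13 with a median of -0.25, and the 30 others had a median of -0.02. Past 2-fold, 3 of the 12 were higher after IL-33 and 1 lower, and 3 of the 30 others were higher and 3 lower. Of all genes over the floor, 15.5% were higher and 16.3% lower. A match is a run of letters and not a measured binding site.

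The libraries held 4080791 counts (IL-33) and 1573707 counts (PBS), so 1 count is 0.245 CPM (counts scaled to a common library total of 1e+06) in the first and 0.635 CPM in the second, and 0 counts allow up to 0.735 and 1.91 CPM, the level of 3 counts. A fold given as "at least" sets the other library's count, taken without its own error, against those 3 counts. The limit of the exact 95% interval, nearer to 1, is given beside it for members. Pairs of values below give the IL-33 library before the PBS library. Among Treg genes, Ctla4 stood at 6186 and 6246 CPM and Ikzf2 at 1681 and 1925 CPM. Il2ra and Il1rl1 differed more. Il2ra was at 613 and 851 CPM, for a ratio of 0.721 (0.674 to 0.771). Il1rl1 was at 843 and 584 CPM, for a ratio of 1.44 (1.34 to 1.55). Of the 11 Treg and T cell genes listed, 10 stayed within 2-fold. Over all 11, the counting interval of the ratio lay above 1 for 5 and below 1 for 2. Foxp3 itself was thin, with 40 counts and 1 count. The 57 members took 0.420% of all counts after IL-33 (exact Clopper-Pearson 95% interval 0.413% to 0.426%) and 0.455% after PBS (0.444% to 0.465%). In sorted pools like these, fewer cycling cells and less of each RNA per cycling cell cannot be told apart. Scaling by trimmed mean of M-values (TMM) multiplies every ratio by 1.09, a shift of 0.12 on the log2 scale, and with it the ratio of the members' summed levels moved from 0.923 (0.897 to 0.949) to 1.003 (0.976 to 1.03).

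Most members stood within 2-fold between the libraries. With a floor of 5 CPM in at least 1 library, 53 members were compared on a log2 fold of CPM plus 1. Of these, 8 passed 2-fold upward after IL-33 (Cdc25a, Ccne1, E2f2, Orc1, Cdc6, Gmnn, Cdc45 and Gins2), 6 passed it downward (Ccne2, Cdt1, Mcm2, Cdc7, Pole and Tk1) and 39 did neither. The members' shares were 15.1% and 11.3%, and those of all 9005 genes over the floor were 15.5% and 16.3%, so the counts are near the background and are no result about these genes as a set. With TMM scaling 11 members were higher and 4 lower, beside 17.9% and 13.9% of all genes. The median log2 fold of the members was -0.09, and that of all genes was -0.08. Among the 39 members within 2-fold, the counting interval of the ratio lay above 1 for 9, below 1 for 9 and held 1 for 21. Among all genes within 2-fold it lay above 1 for 19.5% and below 1 for 27.9%. All 8 higher and all 6 lower members had intervals without 1, a rule that 15.3% and 16.1% of all genes met. E2f1, Gins3, Cdk6 and Rfc5 were under the floor, with 10 against 4, 15 against 2, 0 against 6 and 8 against 0 counts (IL-33 library first).

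**Figure D1:**
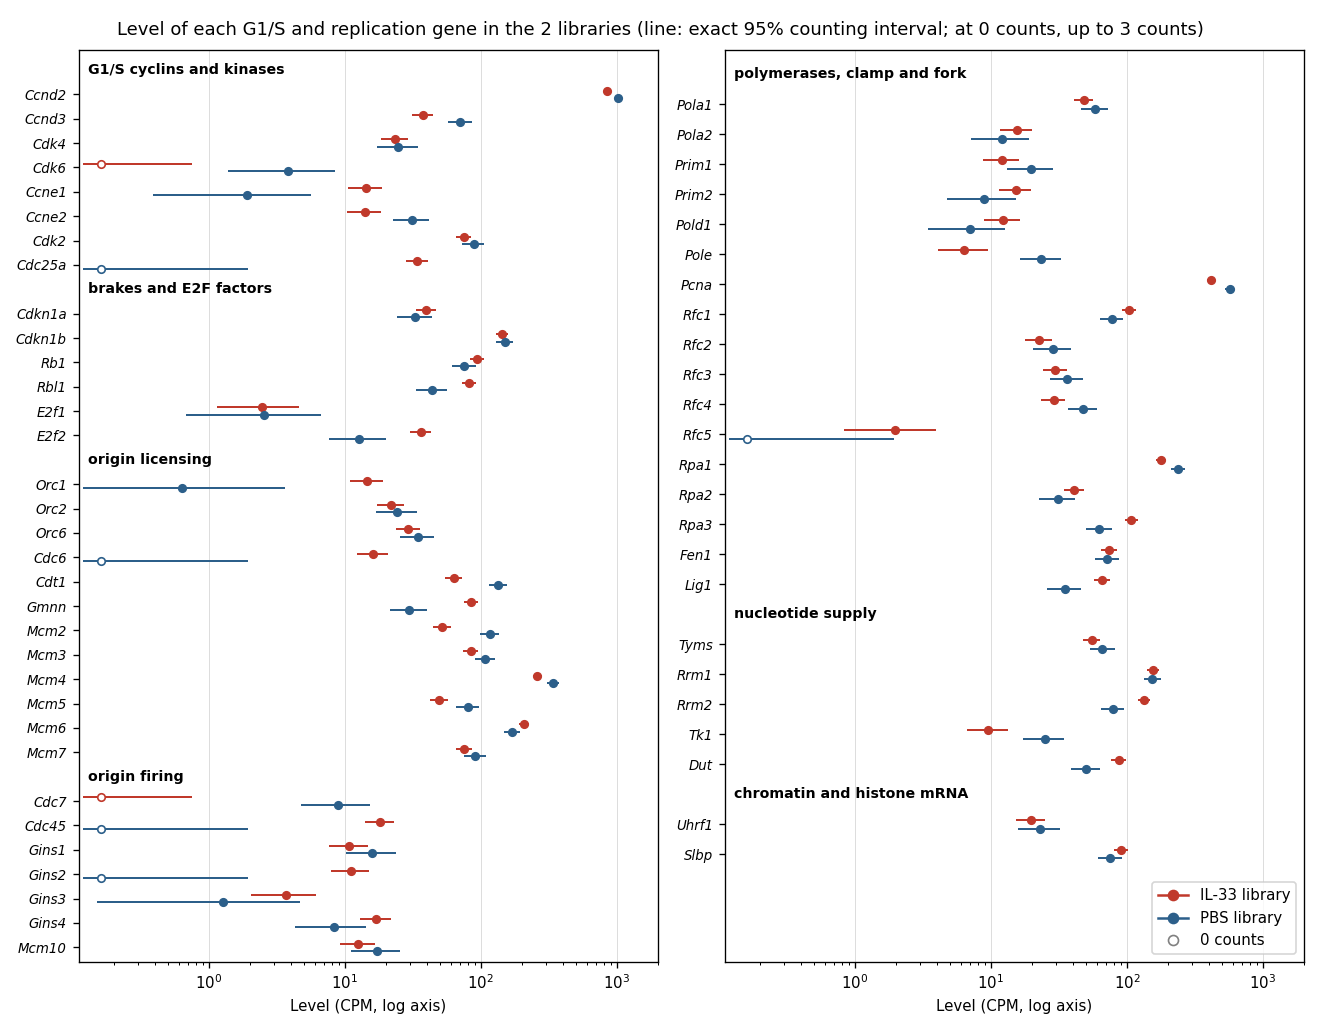
Level of each member in CPM (log axis) in the IL-33 library (red) and the PBS library (blue), ordered by step, with exact 95% counting intervals cut at the left edge of the axis. Open points at the left mark 0 counts, with a line up to the level of 3 counts, as for Cdc25a, Cdc6, Cdc45 and Gins2 in the PBS library and Cdc7 in the IL-33 library. For 39 members the points lie within 2-fold of each other.

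Members past 2-fold were mostly thinly counted, as were other genes past it. At a mean under 20 CPM, 6 of 16 members were higher and 3 lower, where 29.5% and 27.2% of all genes were. Between 20 and 50 CPM, 1 of 11 was higher and 1 lower, beside 13.1% and 17.8% of all genes. Between 50 and 200 CPM, 1 of 22 was higher and 2 lower, beside 4.43% and 6.48%. None of the 4 members at 200 CPM or more (Ccnd2, Pcna, Mcm4 and Rpa1) differed by 2-fold, where 1.21% of all genes were higher and 1.01% lower. These 4 all lay below 0, with a median of -0.41 where that of all genes in the range was -0.06. The 3 members past 2-fold among those averaging 50 CPM or more were Gmnn, higher, and Cdt1 and Mcm2, lower.

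**Figure D2:**
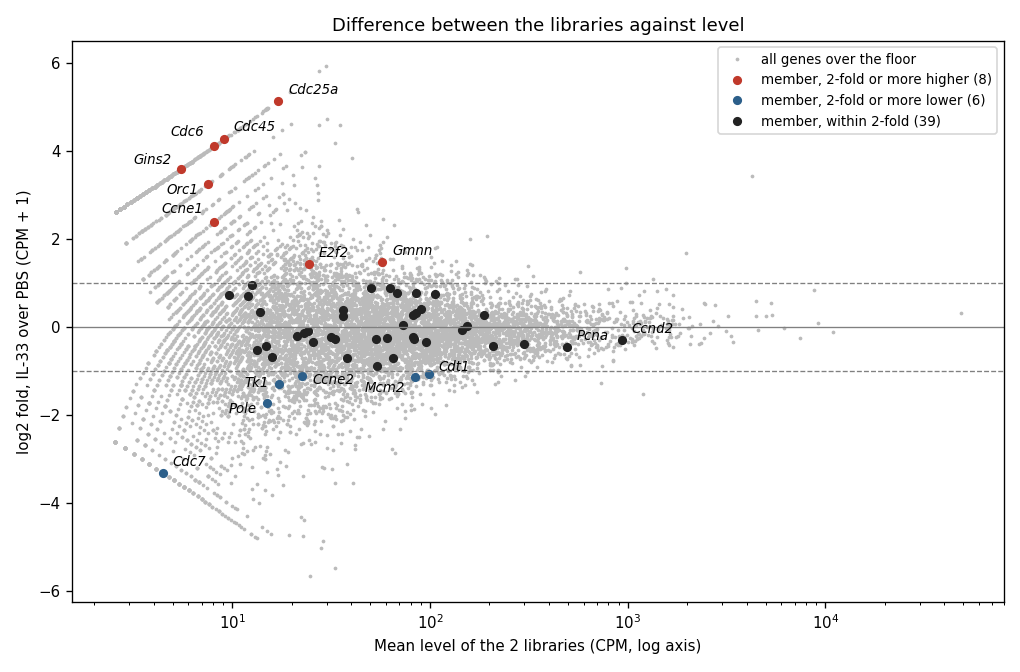
log2 fold of the IL-33 over the PBS library (CPM plus 1) against the mean level (CPM, log axis), with all 9005 genes over the floor in grey and the 53 members coloured by call. Dashed lines mark 2-fold. The highest members, from Ccne1 to Cdc25a, lie on the left among thinly counted genes, and Ccnd2 and Pcna lie near 0 on the right.

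Cyclin D2 gave more counts than any other member. Ccnd2, the D-type cyclin made by lymphocytes after stimulation (chromosome 6, 127125162 to 127152193 in GRCm38, as are all positions), had 3432 and 1619 counts. That is 20.05% and 22.6% of all member counts. Its level was 841 CPM against 1029 CPM, for a ratio of 0.817 (0.770 to 0.868). Ccnd3, a related D-type cyclin, was also lower, at 37.5 against 70.5 CPM, for a ratio of 0.532 (0.414 to 0.685). Per kilobase of the longest coding transcript, Ccnd2 stood at 133 and 163 CPM per kb, above Ccnd3 at 17.7 and 33.4. Their partner kinase gene Cdk4 was close to equal, with 95 and 39 counts (23.3 against 24.8 CPM), and its sign turns with TMM scaling. Tspan31, on the opposite strand, shares 19.7% of its exon bases. Cdk6, the other partner, had 0 counts against 6.

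The cyclin E genes went opposite ways. Ccne1 had 58 and 3 counts, a ratio of 7.46 with a wide interval (2.43 to 37.2). Ccne2 had 57 and 49 counts, 14.0 against 31.1 CPM, for a ratio of 0.449 (0.301 to 0.671). With TMM scaling Ccne2 is just inside 2-fold (log2 fold -0.99), and Ints8 on the opposite strand shares 17.4% of its exon bases. Cyclin E activates Cdk2, whose gene stood at 75.0 against 88.3 CPM, for a ratio of 0.849 (0.693 to 1.05) that held 1. Cdc25a encodes the phosphatase that strips the inhibitory phosphates from Cdk2 (chromosome 9, 109875579 to 109893895). It had the highest log2 fold of CPM plus 1 of all members, 139 counts against 0, a level at least 17.9-fold higher after IL-33 (interval limit 14.3).

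Among the brakes on the cell cycle, Cdkn1a and Cdkn1b had ratios whose intervals hold 1, and the member genes of the Rb family were on the higher side. Cdkn1b, which encodes the inhibitor p27, was at 143 against 149 CPM, for a ratio of 0.957 (0.821 to 1.12), and its sign turns with TMM scaling. Cdkn1a, which encodes p21, was at 39.7 against 33.04 CPM, for a ratio of 1.201 (0.874 to 1.68). Of the kinase inhibitor genes outside the set, Cdkn2d stood at 1.43 (1.14 to 1.80) and Cdkn2c at 0.875 (0.723 to 1.06), and Cdkn1c had 15 counts against 0. Rb1 encodes the main brake on E2F and stood at 94.1 against 75.6 CPM, for a ratio of 1.24 (1.01 to 1.54). Its relative Rbl1 (p107) stood at 81.8 against 43.8 CPM, for a ratio of 1.87 (1.44 to 2.46). Rbl1 passes 2-fold with TMM scaling (log2 fold 1.004 in place of 0.89). Of the activating E2F genes, E2f2 was higher, with 147 counts against 20 (36.0 against 12.7 CPM), a ratio of 2.83 (1.77 to 4.78). E2f1 had 10 counts against 4, too few to compare. E2f3, outside the set, had 83 counts against 29, a ratio of 1.10 (0.715 to 1.75) that held 1.

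Origin licensing held both called directions. The MCM helicase ring is made of 6 related subunits, and 5 of their 6 genes had ratios under 1, 4 of them with an interval under 1. Of all genes over the floor, 54.4% had a log2 fold under 0 and 35.1% an interval under 1. With TMM scaling 3 of the 6 had an interval under 1, since that of Mcm3 then holds 1. Mcm2 (chromosome 6, 88883474 to 88898780) had the lowest ratio: it stood at 52.2 against 116 CPM, for a ratio of 0.449 (0.367 to 0.550). Mcm5 had a ratio of 0.613 (0.489 to 0.772), Mcm4 of 0.759 (0.684 to 0.844), Mcm3 of 0.785 (0.651 to 0.949) and Mcm7 of 0.831 (0.679 to 1.02). Mcm6 alone was on the higher side, at 207 against 170 CPM, for a ratio of 1.22 (1.06 to 1.40). Summed over the ring, the level was 728 against 907 CPM, for a ratio of 0.803 (0.753 to 0.855), and 0.873 (0.819 to 0.930) with TMM scaling.

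The subunits' counts per kilobase of the longest coding transcript were not equal within a library. Differences between genes in amplification and mapping were not measured, so these values do not give the balance of the transcripts themselves. Per kilobase, Mcm4 led in both libraries at 72.3 and 95.3 CPM per kb, followed by Mcm6 at 47.6 and 39.1. In the IL-33 library Mcm3 (27.8) and Mcm7 (25.5) had overlapping counting intervals, as had Mcm2 (15.5) and Mcm5 (14.6) at the bottom. After PBS the intervals of Mcm6, Mcm3 (35.4), Mcm2 (34.5) and Mcm7 (30.7) overlapped, and Mcm5 (23.9) was again last, with an interval that overlapped that of Mcm7.

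The factors that load the ring and their inhibitor did not move together. Cdt1, which brings MCM to origins (chromosome 8, 122568015 to 122573554), had 258 and 211 counts, 63.2 against 134 CPM, for a ratio of 0.472 (0.392 to 0.568), and lies just inside 2-fold with TMM scaling (log2 fold -0.95). Gmnn, whose product geminin binds and inactivates Cdt1 (chromosome 13, 24751845 to 24761923), had 346 and 47 counts, 84.8 against 29.9 CPM, for a ratio of 2.84 (2.09 to 3.94). Cdc6, the ATPase that works with Cdt1, had 66 counts against 0, at least 8.48-fold higher (interval limit 6.71). Among genes of the origin recognition complex, Orc1 had 59 counts against 1, a ratio of 22.8 (3.93 to 914). The member subunits Orc2, at 0.903 (0.611 to 1.36), and Orc6, at 0.850 (0.611 to 1.195), had intervals that hold 1. The subunit genes outside the set stood at 1.45 (1.08 to 1.97) for Orc3, 0.672 (0.535 to 0.848) for Orc4 and 0.858 (0.554 to 1.36) for Orc5. Nif3l1, on the opposite strand, shares 29.8% of the exon bases of Orc2.

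Genes of origin firing were few in counts, at 73.0 against 51.5 CPM summed over 7 genes. Cdc7, the kinase that triggers firing, had 0 and 14 counts, a level at least 12.1-fold lower after IL-33 (interval limit of the ratio 0.116). Cdc45, a helicase cofactor (chromosome 16, 18780447 to 18811987), had 74 against 0 counts, at least 9.51-fold higher (interval limit 7.54). The GINS complex joins Cdc45 and MCM in the active helicase. Its genes had 44 against 25 counts (Gins1), 45 against 0 (Gins2, at least 5.78-fold higher, interval limit 4.51), 15 against 2 (Gins3) and 69 against 13 (Gins4, a ratio of 2.05, 1.12 to 4.04). Gins4 lies just within 2-fold on CPM plus 1 and passes it with TMM scaling (log2 fold 1.06). Of the exon bases of Gins2, 67.3% are shared with Gse1 on the opposite strand, so its counts are uncertain. Mcm10, a factor for helicase activation, had 51 against 27 counts, a ratio of 0.728 (0.448 to 1.21).

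Of the 16 fork genes over the floor, 15 were within 2-fold, as were 68.2% of all genes, a share that grows with level. Pcna, the sliding clamp that holds polymerases on DNA (chromosome 2, 132249162 to 132253314), was at 415 against 569 CPM, for a ratio of 0.730 (0.673 to 0.792). It was the highest member per kilobase in both libraries, at 273 and 375 CPM per kb, and the annotation holds Pcna-ps1 and Pcna-ps2, processed pseudogenes that can share its reads, as it does Ccnd3-ps for Ccnd3 and Tyms-ps for Tyms. Pole, the catalytic subunit of the leading-strand polymerase, was the lower member, with 26 against 37 counts, a ratio of 0.271 (0.158 to 0.460). Pold1, the catalytic subunit of the lagging-strand polymerase, had 50 against 11 counts, a ratio of 1.75 (0.901 to 3.73) that held 1. The priming complex of Pola1, Pola2, Prim1 and Prim2 summed to 90.7 against 99.1 CPM, for a ratio of 0.915 (0.757 to 1.11). Its members ran from 0.610 (0.381 to 0.989) for Prim1 to 1.71 (0.945 to 3.30) for Prim2, with Pola1 at 0.822 and Pola2 at 1.28 between them.

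The clamp loader and the single-strand binding complex each had a summed ratio near 1 and members on both sides of it. Rfc1, the large loader subunit, was at 104 against 77.5 CPM, for a ratio of 1.34 (1.09 to 1.65), and Rfc4 at 28.9 against 47.7 CPM, for a ratio of 0.607 (0.450 to 0.822). Rfc2 and Rfc3, at 0.788 and 0.819, held 1 in their intervals. The loader genes summed to a ratio of 0.983 (0.859 to 1.13). Of the RPA genes, which coat single-stranded DNA, Rpa1 was lower at 178 against 239 CPM, for a ratio of 0.745 (0.657 to 0.846). Rpa3, the smallest subunit and the shortest member transcript at 670 bases, was higher at 108 against 62.3 CPM, for a ratio of 1.73 (1.39 to 2.18), and Rpa2 stood at 1.32 (0.957 to 1.86). Their sum had a ratio of 0.984 (0.888 to 1.09). Of the genes that finish Okazaki fragments, the flap nuclease Fen1 was level at 74.3 against 71.8 CPM, though the antisense gene Gm10143 shares 78.8% of its exon bases. The ligase gene Lig1 was at 65.4 against 34.9 CPM, for a ratio of 1.87 (1.40 to 2.55), which reaches 2-fold with TMM scaling (log2 fold 1.004).

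The 5 nucleotide supply members were higher in sum, at 441 against 374 CPM, for a ratio of 1.18 (1.07 to 1.30), and 1.28 (1.17 to 1.41) with TMM scaling. By log2 fold 3 of them lay above 0 and 2 below. Rrm2, the regulated subunit of ribonucleotide reductase, was at 134 against 78.8 CPM, for a ratio of 1.70 (1.39 to 2.08), and its constant partner Rrm1 at 156 against 154 CPM, for a ratio of 1.01 (0.873 to 1.18). Dut, which clears dUTP, had a ratio of 1.73 (1.35 to 2.23). Tyms, which makes dTMP, was at 0.834 (0.658 to 1.06). Tk1, the salvage thymidine kinase, had 39 counts in each library, which is 9.56 against 24.8 CPM and a ratio of 0.386 (0.241 to 0.617). Uhrf1, which carries DNA methylation through replication, stood at 0.857 (0.571 to 1.31), and Slbp, which binds histone mRNA, at 1.203 (0.975 to 1.49).

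**Figure D3:**
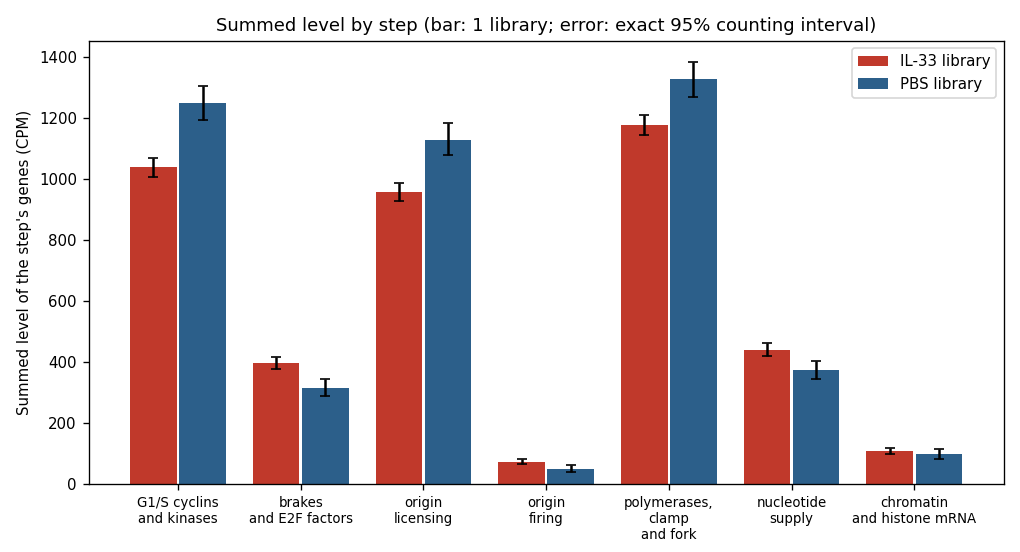
Summed level of the genes of each step (CPM) in the IL-33 library (red) and the PBS library (blue), with exact 95% counting intervals of the sums. The sums of cyclins and kinases, licensing and fork genes were lower in the IL-33 library. Those of brakes with E2F factors, firing and nucleotide supply were higher. Single genes carry much of several sums.

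By step, the summed ratios lay on both sides of 1. They were 0.832 (0.788 to 0.878) for cyclins and kinases, 0.847 (0.801 to 0.897) for licensing and 0.887 (0.843 to 0.934) for the fork. They were 1.25 (1.13 to 1.39) for brakes with E2F factors and 1.42 (1.11 to 1.84) for firing. With TMM scaling the fork stood at 0.965 (0.916 to 1.02), an interval that holds 1, and licensing at 0.921 (0.871 to 0.975). Ccnd2 makes up most of the first of these sums, and without it the cyclins and kinases had a ratio of 0.898 (0.791 to 1.02). Licensing, fork and firing sums also lean on few genes. Mcm2 to Mcm7 gave 2972 of 3909 licensing counts after IL-33 and 1428 of 1779 after PBS. Pcna gave 1694 of 4806 and 895 of 2089 fork counts. Cdc45 and Gins2, at 0 after PBS, gave 74 and 45 of the 298 firing counts after IL-33. Over the floor, 8 fork genes lay on each side of a log2 fold of 0, as did 3 firing genes.

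Shares within a library depend on no scaling factor, and 6 gene pairs were set side by side, chosen after their values were seen. A gap between the libraries therefore restates those values and is no separate support for them. Geminin transcripts made up 57.3% of the Gmnn and Cdt1 counts after IL-33 (exact binomial interval 53.2% to 61.3%) and 18.2% after PBS (13.7% to 23.5%). Ccne1 made up 50.4% of the cyclin E counts (41.0% to 59.9%) against 5.77% (1.21% to 15.9%). Rrm2 held 46.2% of the reductase counts (43.3% to 49.1%) against 33.9% (29.0% to 39.0%), and Mcm6 held 79.9% of the Mcm6 and Mcm2 counts against 59.4%. The share of Cdkn1a among Cdkn1a and Cdkn1b counts was 21.7% (18.8% to 24.9%) against 18.1% (13.8% to 23.1%), with overlapping intervals. Ccnd2 held 95.7% (95.02% to 96.4%) against 93.6% (92.3% to 94.7%) of the D-type pair.

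**Figure D4:**
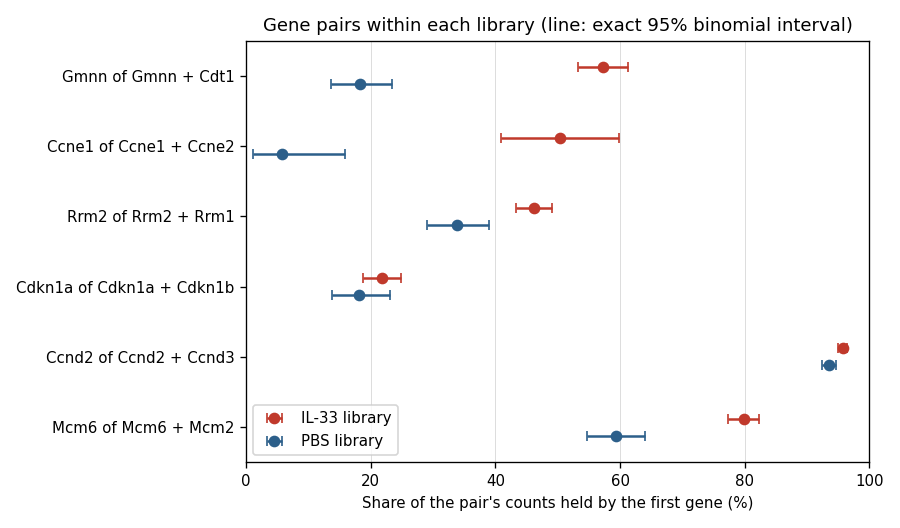
Share (%) of each pair's counts held by the first gene, in the IL-33 library (red) and the PBS library (blue), with exact 95% binomial intervals. The Gmnn, Ccne1, Rrm2, Mcm6 and, by a small margin, Ccnd2 intervals do not overlap between the libraries, and the Cdkn1a intervals do. The pairs were chosen after their values were seen. Those of Gmnn and Ccne1 join a gene called higher with one called lower, so their gaps were known beforehand.

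Other genes of the same pathways also lay on both sides. Of 112 further genes in 6 lists, 96 were over the floor, with 18 higher (18.75%) and 15 lower (15.6%), and a median log2 fold of -0.01. The shares of all genes, 15.5% and 16.3%, are near these and stand beside each list count that follows. Among G1/S control genes, 6 of 19 were higher and 3 lower (31.6% and 15.8%). E2f5, Skp2, Lin37 and Lin52, among the higher, averaged under 20 CPM, where 29.5% of all genes were higher. Their farthest was Ccnh, the cyclin of the CDK-activating kinase, with 219 counts against 2 (42.2 times the level, 11.6 to 351). Genes of the complex that times cell-cycle genes went both ways. Lin54 (0.354) and Mybl2 (0.331) were lower. Lin37, with 26 counts against 1, and Lin52, with 27 against 0, were higher, and Lin9 (0.601) stayed within 2-fold. Further licensing and firing genes had 0 of 14 higher and 2 lower, Wdhd1 at 0.154 (0.0806 to 0.282) and Mcm8 at 0.286 (0.159 to 0.507), and Mtbp stood at 0.487 on CPM. Further fork genes had 1 of 19 higher and 2 lower, among them Timeless, a fork protector, at 0.236 (0.126 to 0.432). Its partner Tipin stood at 1.80 (1.33 to 2.47), and Poldip2 at 0.554.

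Further nucleotide genes had 3 of 22 higher and 5 lower (13.6% and 22.7%), where 15.5% and 16.3% of all genes were, as for the next 2 lists. Dtymk, which phosphorylates dTMP, stood at 4.18 (2.37 to 8.05), and the synthesis genes Umps and Mthfd1 at 0.331 and 0.337. The 22 genes summed to a ratio of 0.914 (0.881 to 0.948), on the other side of 1 from the 5 members. With TMM scaling it was 0.994 (0.958 to 1.03). Samhd1 gave 4687 of the 9550 counts of this sum after IL-33 and 1989 of 4030 after PBS. Of 11 replication chromatin genes, 3 were higher and 1 lower: the histone chaperones Asf1b and Asf1a at 4.59 (2.48 to 9.43) and 7.52 (2.82 to 28.3), against Chaf1a at 0.240 (0.164 to 0.349). Of 11 checkpoint genes, 5 were higher and 2 lower (45.5% and 18.2%). Of all genes averaging under 20 CPM, 29.5% were higher and 27.2% lower. Atr, one of the higher genes, and Rad17 averaged more than that, at 27.0 and 46.6 CPM. Hus1 had 61 against 0 counts (at least 7.84-fold higher) and Brca2 45 against 0 (at least 5.78-fold higher). The 2 lower genes, named after their values were seen, were Bard1 at 0.119 (0.0588 to 0.227) and Wee1 with 0 against 8 counts. The checkpoint genes were thin, at 160 against 130 CPM in all.

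A list of 24 mitosis genes had 22 over the floor, with 10 higher, 3 lower and a median log2 fold of 0.78, beside -0.09 for the members and -0.08 for all genes. The shares past 2-fold over all genes were 15.5% and 16.3%. The difference between the lists was not tested. The proliferation marker Mki67, 1 of the 9 within 2-fold, was nearly level at 378 against 409 CPM. Among the higher were Cdca8, at a ratio of 16.2 (6.83 to 50.4), and Cdk1, at 13.1 (5.01 to 48.8). Among the lower were Aurkb, at 0.325 (0.212 to 0.498), and Bub1b, at 0.341 (0.232 to 0.501).

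Transcripts of other cells and transcript length were set beside these values. The 10 muscle and satellite cell genes summed to 2 counts against 3, with 8 of the 10 at 0 in each library, Pax7, Myod1 and Myog among them. B cell genes summed to 34.1 against 32.4 CPM, dendritic cell genes to 21.6 against 20.97 CPM and endothelial genes to 49.3 against 52.1 CPM. Single genes of these lists differed more, with Itgax at 0 against 19 counts, Siglech at 28 against 2 and Cdh5 at 3 against 11. CD8 T and NK cell genes were at 23.3 against 14.0 CPM, neutrophil genes at 66.9 against 29.2 CPM (mostly Mmp9, with S100a8 and S100a9 at 0 in both) and erythroid genes at 0 against 8.90 CPM. Fibroblast genes stood at 158 against 294 CPM, most of it Thy1, which T cells also make. Col3a1 had 0 counts against 78 and Dcn 0 against 24, while Col1a1 and Col1a2 were at 0 in both. The macrophage list, at 2921 against 2037 CPM, was nearly all Ccr2, which activated T cells also make, and Lyz2 stood at 19.1 against 38.8 CPM. Their part in the members' values was not tested. Among 3317 annotated genes at a mean level of at least 50 CPM, longer transcripts were on the lower side in the IL-33 library (Spearman rho -0.19). For the 26 members at that level rho was -0.11, and for the 53 over the lower floor of 5 CPM it was -0.0031. These are descriptions across genes of 2 libraries.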

How the data were processed

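The authors deposited unnormalized counts of reads for each gene symbol in 2 libraries of 25 bp paired-end reads from amplified poly(A) cDNA, per the labels' protocols. TopHat2 2.0.10, Cufflinks 2.2.1 and mm10 are named in the submitters' processing notes, and which counting program and strand setting were used is not stated in these sources, so overlapping genes cannot be separated: 16 members share at least 5% of their exon bases with another gene. Columns were tied to libraries by name (0 unused, and 0 rows lacked a gene name).

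Counts were divided by library totals to CPM. Genes with at least 5 CPM in 1 library were compared on CPM plus 1, with calls at 2-fold. Ratios of CPM carry exact conditional 95% intervals, and a 0 was replaced by 3 counts for bounds. With 1 library per group no test was run. Members and lists (218 symbols, 211 in the table) were chosen with earlier results of these data known. Of each further pathway list the 3 genes farthest from 0 with at least 10 CPM in a library are named, except 1 gene that is not reported here. Other genes were named after their values were seen. Alternatives were TMM (edgeR 4.0.16) and DESeq2 1.42.0 size factors, other floors and pseudocounts of 0.5 and 5. Positions and lengths came from GENCODE M21 (GRCm38), and start windows from RefSeq. Python 3.11.15, scipy 1.17.1 and R 4.3.3 were used. The calls and intervals were tested on simulated data with counting error only, and with folds planted only in genes at 20 CPM or more. Amplification error and the recovery of folds in thinner genes were therefore not tested.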

Additional observations from a re-analysis of the deposited data

How the results depend on the processing

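The counts of called members depended on the floor, as did the shares of all genes. With a floor of 20 CPM 3 members were higher in place of 8, and with a mean of 50 CPM or more 1 was higher and 2 lower in place of 8 and 6, fewer genes being compared in each case. The number of higher members was otherwise 8 to 11 and of lower members 4 to 7. Of all genes, 12.7% to 18.5% were higher in those settings and 11.9% to 16.7% lower. The members' median ran from -0.22 to 0.03 over the alternatives, and that of all genes from -0.10 to 0.05. TMM scaling changed the call of 5 of 53 members (Ccne2 and Cdt1 lost, Rbl1, Gins4 and Lig1 gained) and DESeq2 size factors of 3, with 0 reversals, and the signs of Cdk4 and Cdkn1b turned under both. A pseudocount of 5 lost the call of Ccne2, and one of 0.5 changed none. No paired analysis was possible because each group holds 1 library, and for the same reason no library could be left out. Depth limits the PBS library most: 5 members had 0 counts there, where up to 1.91 CPM remains possible, so a ratio for Cdc25a, Cdc6, Cdc45 or Gins2 is only a bound.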
